A study of Rattus norvegicus with 6 samples.

Results

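A set of 10 genes of the methionine cycle, transsulfuration, and taurine synthesis and uptake was examined in rat liver: Mat1a, Ahcy, Gnmt, Bhmt, Mtr, Cbs, Cth, Cdo1, Csad and Slc6a6. They were taken by symbol, and all 10 had 1 probe each among the 9627 named genes of the array. The livers came from male Sprague Dawley rats, all fed a 60% high-fat diet, so the diet is shared by both groups. For 9 weeks 1 group had received by stomach tube the dark tea fermented by Eurotium cristatum, numbered 8730, and the other had received distilled water. Each group held 3 arrays, hybridised in a single colour (Cy3). Animals on the normal diet were not analysed here. Whether each replicate was a different animal is not stated, so the p-values refer to the spread among these 6 samples, part of which may be technical.

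The methionine cycle turns dietary methionine into S-adenosylmethionine, the methyl donor of the cell, and recovers methionine from the homocysteine left after methyl transfer. Liver is the main site of this cycle. Homocysteine that is not remethylated enters transsulfuration and becomes cysteine, which liver uses for glutathione or oxidises to taurine, and taurine is conjugated with bile acids. Cells also import taurine through Slc6a6.

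None of the 10 genes passed the correction over all probes (limma, Benjamini-Hochberg adjusted p from 0.949 to 0.991), against 0.00379% of all probes, which is 1 of 26419. The taurine importer Slc6a6 had the smallest p of the 10 and read 2.98-fold lower with tea, and methionine synthase, Mtr, read 1.80-fold lower. In these 2 genes alone the tea arrays did not overlap the water arrays, against 10.4% of all probes in either direction. Without control replicate 1, an array that stood apart from the rest, the tea arrays also lay below the remaining controls for Gnmt, Cth and Cdo1. The share of all probes that lay lower in that way was 11.1%.

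The promoters of Slc6a6 and Mtr are shown because these were the 2 genes whose groups did not overlap. Each is the stretch of 250 bases before the gene's start, 5′ to 3′, from RefSeq on the GRCr8 build. The Slc6a6 stretch lies on the plus strand at chr4:125752252-125752501 and the Mtr stretch on the plus strand at chr17:62911528-62911777. Capitals mark matches to the motifs listed after them.
Slc6a6: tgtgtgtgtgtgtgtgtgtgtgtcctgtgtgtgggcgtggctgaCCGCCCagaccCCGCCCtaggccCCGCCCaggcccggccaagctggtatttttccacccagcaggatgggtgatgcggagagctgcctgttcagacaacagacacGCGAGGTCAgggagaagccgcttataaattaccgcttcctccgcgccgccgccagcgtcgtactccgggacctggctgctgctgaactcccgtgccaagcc
Mtr: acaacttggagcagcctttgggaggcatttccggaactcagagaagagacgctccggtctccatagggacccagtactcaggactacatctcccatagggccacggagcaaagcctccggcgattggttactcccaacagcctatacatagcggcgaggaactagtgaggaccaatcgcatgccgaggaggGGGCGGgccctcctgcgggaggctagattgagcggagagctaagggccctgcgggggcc

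Both strands were searched for 5 motifs, and no binding was measured. The GC box GGGCGG began 206, 195 and 183 bases before the start of Slc6a6, each time on the opposite strand (CCGCCC), and 59 bases before that of Mtr. It was found in 7 of the 9 members with a promoter in the RefSeq table (all but Mat1a and Bhmt, with no entry for Cdo1) and in 30.5% of all 33469 promoters. The core of the antioxidant response element, TGACNNNGC, matched 101 bases before the start of Slc6a6 as its reverse complement, GCGAGGTCA, in none of the other 8 members, and in 10.1% of all promoters. The E-box CACGTG matched in Cth alone of the 9 and in 5.59% of all promoters. The D-box TTANGTAA, which clock output factors bind, and the composite motif TGATGNAA matched in none of the 9, and in 2.04% and 3.40% of all promoters. The Slc6a6 and Mtr stretches were 64% and 60.8% G and C, against a median of 51.2% over all promoters. No 2 of the motif matches overlapped.

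Median probe intensities lay between 87.1 and 95.9 on the 6 arrays, after RMA, which equalises the arrays' distributions. Control replicate 1 correlated with the other arrays at 0.884 to 0.899 over all probes, while those 5 correlated at 0.945 to 0.972 with each other. Results are therefore given with and without it. The 8 hepatocyte markers (among them Alb, Ttr and Apob) were bright on every array, and their summed intensity was 224913 to 254039 with tea and 233161 to 266431 with water. The 3 measured adipocyte markers and 3 of the 4 pancreatic acinar markers stayed less than 1 log2 unit above the highest reading of the random control probe, whose log2 level was 5.046 to 5.404. In whole liver, fewer cells of a type and less RNA per cell cannot be told apart.

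**Figure D1:**
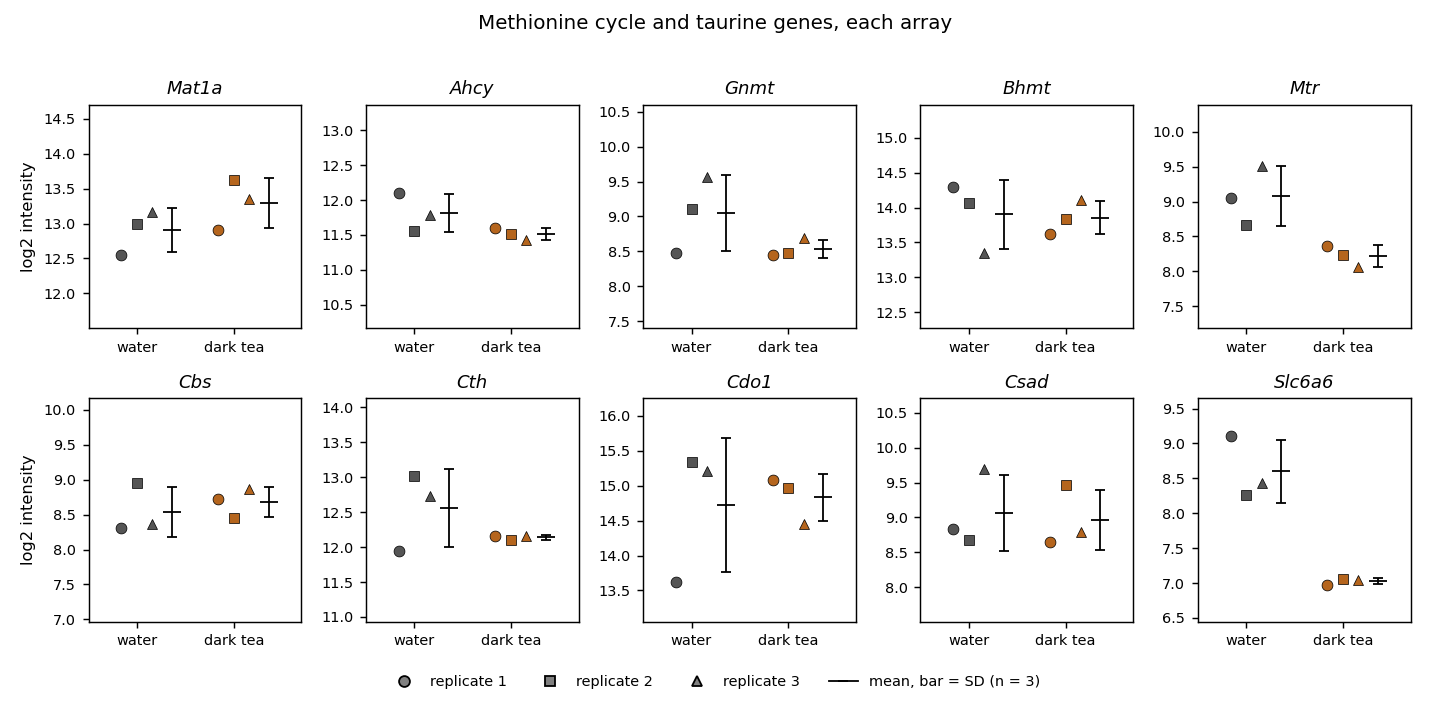
Log2 intensity (vertical axis) of the 10 genes on each of the 6 arrays, with water in grey and dark tea in brown. Marker shapes give the replicate number, the horizontal line the mean and the bar the SD of 3 arrays. The tea arrays of Slc6a6, at 6.98 to 7.06, and of Mtr, at 8.06 to 8.37, lie below all 3 water arrays of the same gene.

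Slc6a6 encodes the sodium- and chloride-dependent carrier that takes taurine into cells. Its intensity was 126, 133 and 132 on the 3 tea arrays and 553, 306 and 347 on control replicates 1, 2 and 3. The tea arrays were nearly equal to each other, and the lowest control lay well above the highest tea array. Mean log2 levels were 7.03 ± 0.04 under tea and 8.60 ± 0.45 under water (SD over 3 arrays). The difference was -1.58 ± 0.32 (SE, 95% confidence interval -2.29 to -0.87), which ranked 8 of 26419 in limma, with an unadjusted p of 0.000539. After correction over all probes it was not called (limma, adjusted p = 0.949). An exact permutation test (two-sided, 10 divisions of 3 against 3) returned p = 0.1, which is the lowest value possible with so few arrays. Control replicate 1 had the highest value of all, so without it the difference was -1.32 ± 0.30 (95% confidence interval -1.97 to -0.67), or 2.50-fold, with a limma adjusted p of 0.412. With each of the 6 arrays left out in turn the difference stayed between -1.75 and -1.32. The tea level lay above that of the random control probe, which read no higher than 5.404 on any array.

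The enzymes that make taurine gave no such separation with all arrays. Cdo1, cysteine dioxygenase, oxidises cysteine to cysteine sulfinate and is known as an enzyme whose protein level follows cysteine supply. Its intensity was 34620, 32117 and 22424 with tea and 12608, 41561 and 37854 with water. The low control was replicate 1, which lay 3.15-fold below the mean of the other 2 controls. With all arrays the log2 difference was 0.11 ± 0.46 (SE), and without control replicate 1 it was -0.44 ± 0.32 (limma adjusted p = 0.906). The direction for Cdo1 thus turned with that 1 array. Csad decarboxylates cysteine sulfinate to hypotaurine, and its intensity was 402, 704 and 445 with tea and 454, 410 and 828 with water. In both groups 1 array was high and 2 were low, and the groups overlapped. The Csad difference was -0.10 ± 0.37 (95% confidence interval -0.92 to 0.73), and -0.22 without control replicate 1.

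Of the 10 genes, Mtr and Bhmt encode enzymes that remethylate homocysteine. Mtr, methionine synthase, uses methyl-folate and cobalamin, and its intensity was 330, 302 and 267 with tea against 529, 404 and 732 with water. All 3 tea arrays lay below all 3 controls. Mean log2 levels of Mtr were 8.22 ± 0.16 under tea and 9.07 ± 0.43 under water (SD over 3 arrays). The difference was -0.85 ± 0.32 (SE, 95% confidence interval -1.56 to -0.14), with an unadjusted limma p of 0.0236 and an adjusted p of 0.949. It was -0.86 ± 0.34 without control replicate 1 (limma adjusted p = 0.829). The unadjusted limma p was 0.0602 without tea replicate 2, 0.0679 without tea replicate 3 and 0.101 without control replicate 3, where the difference was -0.63. Bhmt, which takes the methyl group from betaine, had intensities of 12656, 14583 and 17596 with tea and 20084, 17195 and 10443 with water. Its control arrays spanned the whole tea range. The Bhmt difference was -0.05 ± 0.34, and 0.14 without control replicate 1.

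The other 3 enzymes of the cycle make S-adenosylmethionine, use it, and split the S-adenosylhomocysteine that is left. Mat1a, the liver form of the enzyme that makes it, had intensities of 7662, 12589 and 10464 with tea and 5996, 8153 and 9159 with water. Tea replicate 1 fell among the controls while the other two tea arrays lay above them, and the difference was 0.39 ± 0.33, or 0.22 ± 0.33 without control replicate 1. Gnmt, which disposes of surplus S-adenosylmethionine by methylating glycine, read 350, 357 and 413 with tea and 355, 550 and 755 with water. Control replicate 1 lay among the tea arrays and the other two controls above them. The Gnmt difference was -0.50 ± 0.34, and -0.79 ± 0.32 without control replicate 1 with an unadjusted limma p of 0.0242 and an adjusted p of 0.829. Without control replicate 3, the highest array, it was -0.25, and over the 6 omissions it ran from -0.79 to -0.25. Ahcy, which splits S-adenosylhomocysteine into homocysteine and adenosine, read 3099, 2934 and 2748 with tea and 4408, 3016 and 3514 with water. The groups met between 3016 and 3099, and the difference was -0.30 ± 0.30, or -0.155 without control replicate 1.

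Transsulfuration has 2 enzymes. Cbs, cystathionine beta-synthase, commits homocysteine to cysteine, and it read 422, 349 and 469 with tea and 316, 494 and 330 with water. The groups overlapped, and the difference was 0.14 ± 0.31, or 0.024 ± 0.33 without control replicate 1. Cth, cystathionine gamma-lyase, releases cysteine, and it read 4594, 4396 and 4572 with tea and 3922, 8303 and 6804 with water. The tea arrays were close together, with an SD of 0.035 log2 units, while control replicate 1 lay below them and the other two controls well above. The Cth difference was -0.42 ± 0.34 with all arrays and -0.73 ± 0.31 without control replicate 1 with an unadjusted limma p of 0.0303 and an adjusted p of 0.848. Without control replicate 2, the highest array, it was -0.19, and over the 6 omissions it ran from -0.73 to -0.19.

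**Figure D2:**
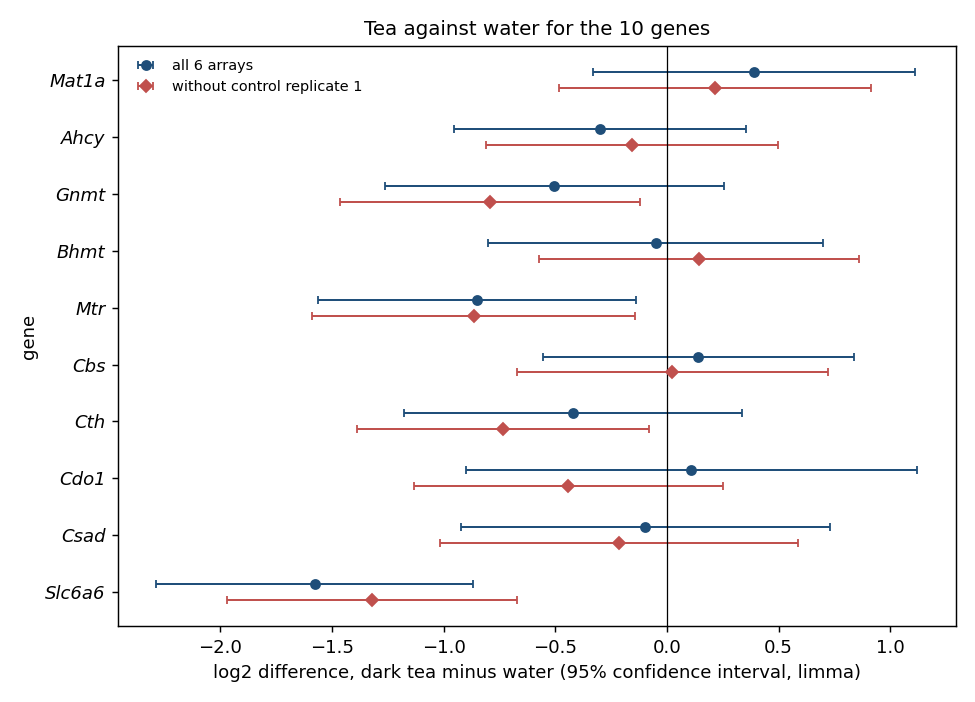
Log2 difference, dark tea minus water (horizontal axis), of each gene with its 95% confidence interval from limma, with all 6 arrays (blue circles) and without control replicate 1 (red diamonds). With all arrays the intervals of Slc6a6 and Mtr leave out 0, and without control replicate 1 those of Gnmt and Cth do too. Intervals are not adjusted for multiple tests.

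Counted together, 3 of the 10 genes had a higher and 7 a lower mean with tea, and the median log2 difference was -0.20, against -0.0022 over all probes, of which 50.3% were lower. An unadjusted limma p under 0.05 was found for 2 of the 10, where the share of all probes was 4.23%. The groups did not overlap for 2 of the 10, both lower with tea, where 10.4% of all probes did not overlap in either direction and 5.54% were lower. Without control replicate 1 the median was -0.33, against 0.0065 over all probes, and 0 of the 10 passed the correction, with 0.0227% of all probes called. In that fit 4 of the 10 had an unadjusted limma p under 0.05 (Slc6a6, Mtr, Gnmt and Cth), against 5.63% of all probes. The tea arrays lay below both remaining controls for 5 of the 10, Cdo1 being the fifth gene, against 11.1% of all probes. The 10 genes were chosen with earlier results of these data known, so these counts describe them and are no test.

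The SD over the 3 tea arrays was smaller than that over the 3 controls for 9 of the 10, Mat1a being the exception, with a median SD of 0.19 log2 units with tea and 0.47 with water. Over all probes 61.0% had the smaller SD with tea, with medians of 0.33 and 0.42. Against control replicates 2 and 3 alone, the tea SD was smaller for 8 of the 10 genes and for 36.8% of all probes, with median control SDs of 0.26 for the 10 and 0.23 over all probes. These control SDs rest on 2 arrays and the tea SDs on 3, so they are not directly comparable. Control replicate 1 was the lowest control for Mat1a, Gnmt, Cbs, Cth and Cdo1, and the highest for Ahcy, Bhmt and Slc6a6. In size, its distance from the mean of the other 2 controls ran from -0.040 log2 units for Mtr to -1.65 for Cdo1. What sets this array apart was not tested.

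Genes around the pathway were taken from 6 lists with 67 entries, of which 46 were measured. None passed the correction (limma adjusted p 0.949 or more). With tea 21 had a higher and 25 a lower mean, with a median log2 difference of -0.09, and 3 of the 46 had an unadjusted limma p under 0.05, Got1 higher and Tcn2 and Pipox lower, a share near the 4.23% of all probes. The groups did not overlap for 7 of the 46, 1 higher and 6 lower, against 10.4% of all probes. Without control replicate 1 the split was 10 higher and 36 lower and the median -0.25, so the direction of many of these genes rested on that array. Over all probes 49.3% were then lower, with a median of 0.0065. In that fit 1 higher and 4 lower genes had an unadjusted limma p under 0.05, against 5.63% of all probes. The groups did not overlap for 2 higher and 10 lower genes, against 21.1% of all probes in either direction.

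Of the 8 measured genes of remethylation and betaine, 3 were higher and 5 lower, with a median of -0.41. These counts were 1 and 7 without control replicate 1, and the median -0.48. Tcn2, transcobalamin, carries to cells the cobalamin that Mtr needs. Its log2 intensity was 7.32, 7.72 and 7.35 with tea and 8.25, 8.425 and 8.45 with water, and the difference was -0.91 ± 0.29 (SE), or -0.97 without control replicate 1. Pipox, a peroxisomal oxidase of pipecolate and of the sarcosine that Gnmt makes, had log2 intensities of 9.375, 9.42 and 9.075 with tea and 10.295, 10.09 and 10.115 with water, a difference of -0.88 ± 0.29. Both genes lay lower on every tea array than on any control, with narrow control groups. Dmgdh, which oxidises the dimethylglycine that Bhmt releases, differed by -0.46 ± 0.28, with tea arrays at 10.43 to 10.50 and controls at 10.80 to 10.98. Unlike Gnmt and Cth, these 3 genes had control replicate 1 above every tea array.

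Of the 7 measured genes that supply or use S-adenosylmethionine, 4 were higher and 3 lower, with a median of 0.03. Without control replicate 1 the split turned to 1 higher and 6 lower, with a median of -0.38. Gamt, the methyltransferase that completes creatine, differed by -0.46 ± 0.29, with tea arrays at 11.62 to 12.02 and controls at 12.245 to 12.30. Pemt, which methylates phosphatidylethanolamine to phosphatidylcholine, differed by -0.59 ± 0.29, but its tea level of 5.73 ± 0.19 (SD, n = 3) was close to that of the random control probe, which makes the size of this difference uncertain. In the folate list, 3 of 9 were higher and 6 lower. Of these 9, 2 stayed less than 1 log2 unit above the highest reading of the random control probe. Mthfs, which returns formyl-folate to the active pool, differed by -0.30 ± 0.28 with tea at 7.77 to 7.92 and water at 8.05 to 8.33. None of these differences passed the correction over all probes (limma adjusted p = 0.949).

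In the cysteine, sulfide and glutathione list, 7 of 9 were higher and 2 lower, with a median of 0.15. Without control replicate 1 that median turned to -0.23. Got1, the cytosolic aspartate aminotransferase, which also acts on cysteine sulfinate, had log2 intensities of 10.42, 11.03 and 10.96 with tea and 9.34, 9.87 and 9.95 with water. All 3 tea arrays lay above all controls. The Got1 difference was 1.08 ± 0.32 (SE, limma adjusted p = 0.949) and 0.89 ± 0.32 without control replicate 1. The methionine salvage and polyamine list had 3 of 8 higher and a median of -0.09, or 2 of 8 and -0.25 without control replicate 1, and the groups overlapped for every gene of it. Among 5 measured genes of taurine side reactions, transport and bile acid conjugation, 1 was higher and 4 lower, with a median of -0.40, and the groups of every one overlapped. All 5 were lower without control replicate 1, with a median of -0.24. Baat, which joins taurine or glycine to bile acids and was picked here after its values were seen, differed by 0.19 ± 0.37, and by -0.20 without control replicate 1.

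**Figure D3:**
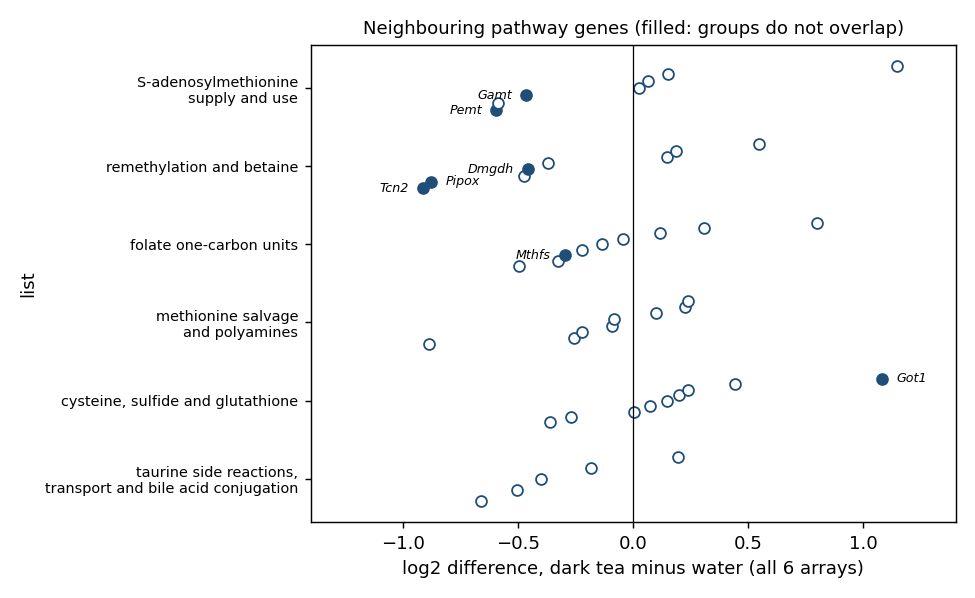
Log2 difference, dark tea minus water (horizontal axis), of the 46 measured genes around the pathway, 1 point each, by list (vertical axis). Filled and named points are the 7 genes whose groups did not overlap, from -0.91 for Tcn2 to 1.08 for Got1.

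**Figure D4:**
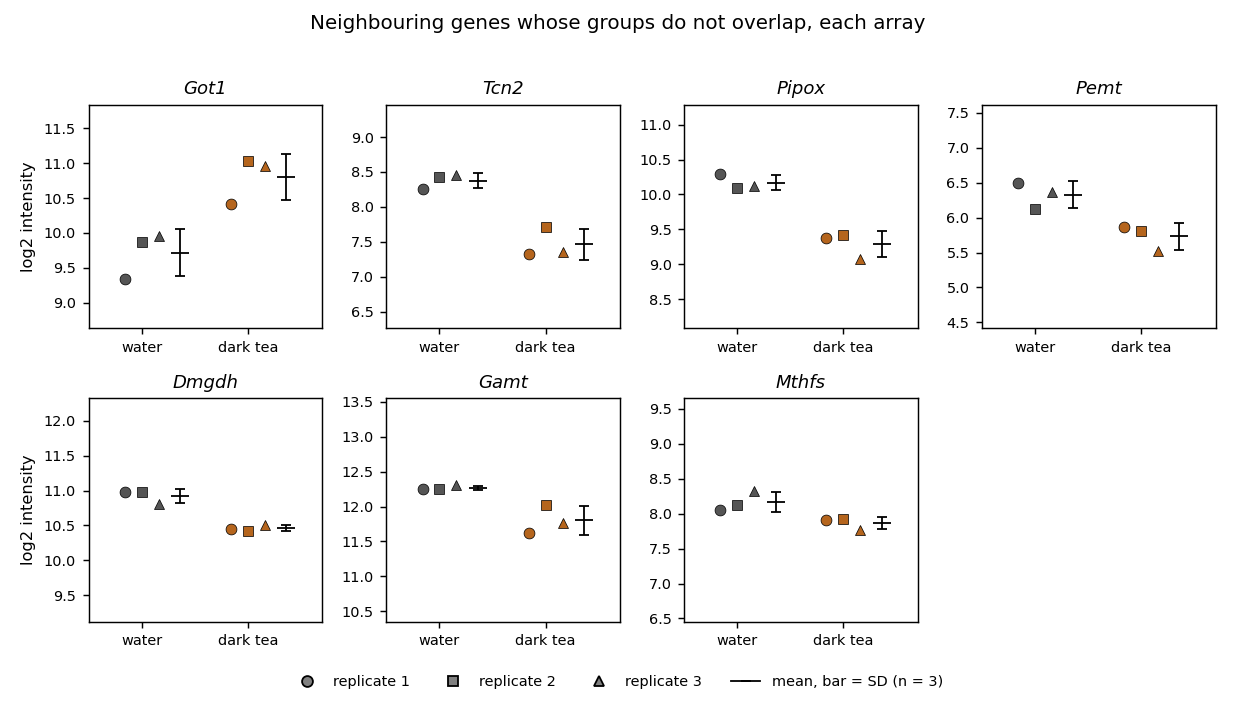
Log2 intensity (vertical axis) of these 7 genes on each array, with water in grey, dark tea in brown, marker shapes for the replicate number, and the mean with its SD of 3 arrays. Got1 is higher on all tea arrays, and the other 6 are lower on all of them.

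The named genes whose log2 levels over the 6 arrays ran most like those of Slc6a6, the gene of the 10 with the largest limma statistic, were Exoc7, Notch2 and Plcg1, with Pearson correlations of 0.996, 0.991 and 0.980. Exoc7, a subunit of the exocyst that tethers secretory vesicles, read 6.05, 6.11 and 6.08 with tea and 7.38, 6.83 and 7.08 with water on the log2 scale. Notch2, a receptor of cell contact signalling, read 6.77, 6.97 and 6.74 with tea and 8.13, 7.51 and 7.68 with water. Plcg1, a phospholipase C, differed by -0.16, the smallest difference of the 3. These genes were picked for likeness out of 9627 over 6 arrays that fall into 2 groups, so close matches are a description only.

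Zonal markers are given beside these values because several enzymes of the pathway differ between the portal and central ends of the lobule. Of 7 periportal markers, 6 were higher and 1 lower with tea, and their summed intensity was 56325 to 69634 with tea and 33749 to 62477 with water, where control replicate 1 was the lowest. Of 7 pericentral markers, 5 were higher and 2 lower, with sums of 45228 to 56337 with tea and 43388 to 53763 with water. Without control replicate 1, 6 were higher and 1 lower in each of these 2 lists. The median log2 difference then went from 0.32 to 0.29 for the periportal list and from 0.06 to 0.29 for the pericentral list. Sds, Hal and Slc1a2 were picked here because their groups did not overlap, and with all arrays those of every other zonal marker overlapped. Over all probes 10.4% did not overlap in either direction. Sds, serine dehydratase and a periportal marker, had log2 intensities of 9.96, 10.28 and 10.69 with tea and 7.91, 9.21 and 8.56 with water. All tea arrays lay above all controls, and the difference was 1.75 ± 0.38 (SE), which ranked 14 of 26419, or 1.42 ± 0.34 without control replicate 1. Hal, histidine ammonia-lyase, also periportal, differed by 0.48, and the pericentral glutamate transporter Slc1a2, by the brighter of its 2 probes, by 0.62. For both the tea arrays lay above all controls, but narrowly. The lowest tea array and the highest control were at log2 9.158 and 9.152 for Hal. For Slc1a2 they were at 8.35 and 8.28. None of the 14 passed the correction (limma adjusted p 0.949 or more), and the part of zonation in the differences above was not tested.

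Markers of other liver cell types are given because the samples were whole liver, and none passed the correction (limma adjusted p 0.949 or more). All 4 measured lymphocyte markers were higher with tea, with a median log2 difference of 0.35, and their summed intensity was 895 to 1567 with tea and 513 to 825 with water. With control replicate 1 left out, 3 were higher and 1 lower, with a median of 0.11. Gzmb, granzyme B of cytotoxic lymphocytes, was picked here because its groups did not overlap. Its log2 intensities were 8.95, 9.75 and 10.21 with tea and 8.26, 8.43 and 8.35 with water. The Gzmb difference was 1.29 ± 0.36 (SE), or 1.24 without control replicate 1. Gzmb was the brightest of the 4 on every array, at 495, 860 and 1184 with tea and 306, 346 and 327 with water. The groups overlapped for each of Cd3d, Cd8a and Cd4, and the gap between the sums rested on Gzmb. For the cell types that follow, the summed intensities of the groups overlapped. Of 4 Kupffer cell and macrophage markers 1 was higher and 3 lower, with sums of 832 to 1832 with tea and 1076 to 1651 with water. Of 5 stellate cell markers 4 were higher and 1 lower, with sums of 1155 to 1501 and 976 to 1418. All 4 cholangiocyte markers were lower, with sums of 480 to 735 and 523 to 671. The endothelial and neutrophil lists had 2 measured markers each, 1 higher and 1 lower in both, and the 2 erythroid markers were lower. The cholangiocyte markers Krt19 and Cftr and the neutrophil marker S100a8 stayed less than 1 log2 unit above the highest reading of the random control probe. Their directions are therefore uncertain. These splits turned or shifted without control replicate 1. The 4 Kupffer cell and macrophage markers and the 2 endothelial markers were then all lower, and the 2 neutrophil markers higher. Then 3 stellate cell markers were higher and 2 lower, 1 cholangiocyte marker was higher and 3 lower, and the erythroid markers split 1 and 1. The part of these cell types in the differences above was not tested.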

How the data were processed

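Per the labels' protocols, Cy3 was the one dye and the arrays were NimbleGen's. The 6 liver samples were grouped by title, 3 in each group. The deposited values are 1 linear intensity per probe and array after RMA, per the submitters' processing notes, with version and settings not given in the sources used here. RMA equalises the arrays' distributions, so differences in total signal are not visible. Values were linear, so log2 was taken with no further scaling. Of 26420 rows, all but 1 random control row entered the fit, which gives 26419 probes with no filter on low signal.

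Probe identifiers were matched to RefSeq transcripts of GRCr8 without versions. Of the probes, 9747 had 1 symbol, 0 several and 16672 none here. Where a gene had several probes, the one with the highest mean stood for it. Tea was compared with water by limma 3.58.1 in R 4.3.3 (lmFit, eBayes, two-sided), adjusted over all probes by Benjamini-Hochberg at 0.05. Single genes were tested by exact permutation. The number of arrays limits the precision.

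The genes described and the lists were chosen with earlier results of these data known. All 10 members were named, with up to 6 neighbouring genes per direction whose groups did not overlap, by smallest p, and the 3 genes most like the leading member. Genes named beyond this rule are marked as such, apart from markers named only as members of a list. Alternatives were quantile normalization once more, median centring, a filter on the dimmest 25% of probes, eBayes with trend and robust, the replicate number as a block, the mean of a gene's probes, and each array left out.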

Additional observations from a re-analysis of the deposited data

How the results depend on the processing

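None of the 10 genes passed the correction with limma under any of the 12 alternatives, while 1 to 4 had an unadjusted p under 0.05, as did 2.22% to 5.93% of all probes. Quantile normalization once more and median centring turned the direction of none of the 10 genes or of the 7 named neighbours. The dim filter and the trended robust fit leave a gene's difference as it is. So does the mean of a gene's probes for the 10 genes, which had 1 probe each. Deviations of same-numbered arrays from their group means correlated at -0.22, 0.013 and -0.25, and those of differently numbered arrays at -0.12 to 0.25. With 3 arrays per group these values cannot decide whether the numbers pair the samples. With the replicate number as a block, 0 probes passed with limma against 1 without it, 787 had an unadjusted p under 0.05, and the Slc6a6 difference had an adjusted p of 0.999. With an array left out, 0 to 6 probes passed, the largest count being that without control replicate 1. The groups then did not overlap for 2 to 5 of the 10 genes: 5 without control replicate 1 (21.1% of all probes in either direction), and 4 without tea replicate 1 (21.7%) or control replicate 2 (21.8%). The median over the 10 ran from -0.33 to -0.18. Directions turned for 3 genes. Bhmt ran from -0.33 to 0.14 and was positive without tea replicate 1 (0.063), control replicate 1 (0.14) or control replicate 2 (0.032). Cdo1 ran from -0.44 to 0.42 and was negative without tea replicate 1 (-0.012) or control replicate 1 (-0.44). Csad ran from -0.34 to 0.22 and was positive without tea replicate 1 (0.062) or control replicate 3 (0.22). The cause was not tested. No alternative background correction was run, since the table holds no background signal.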

Other observations

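Several genes around the pathway, picked here after their values were seen, were far lower in control replicate 1 than on any other array. Adk, adenosine kinase, which removes the adenosine that Ahcy releases, had a log2 intensity of 8.25 there and 11.76 to 12.27 on the other 5 arrays. Mthfd1, which interconverts folate one-carbon units, had 9.41 there and 11.25 to 11.68 elsewhere. The periportal marker Arg1, arginase, had 11.29 there and 14.52 to 15.15 elsewhere. The Adk difference was 1.145 with all arrays and -0.18 without control replicate 1, and that of Mthfd1 was 0.80 and 0.12.

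Slc6a13, known in mouse liver as a carrier of taurine and related compounds and also picked after its values were seen, had log2 intensities of 12.295, 11.745 and 11.11 with tea and 11.74, 12.04 and 12.89 with water. The groups overlapped, and the difference was -0.50 ± 0.41 (SE, limma adjusted p = 0.949), beside -1.58 ± 0.32 for Slc6a6. Without control replicate 1 the difference was -0.75 ± 0.39 for Slc6a13, whose groups still overlapped, and -1.32 ± 0.30 for Slc6a6.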
